A study of Mus musculus with 3 samples.

Results

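The genes described here are 8 interferon response genes, taken by their symbols from the 31053 genes of the deposited count tables. They are the receptor chain gene Ifnlr1 and the response genes Irf7, Zbp1, Ddx60, Isg15, Ifit1, Ifit3 and Oasl2, and each symbol matched 1 gene. The study built an intersectional scheme of the recombinases Dre and Cre to reach mature enteroendocrine cells, and its single-cell RNA libraries of the small intestine came from wild-type C57BL/6N mice. Epithelial cells and the immune cells between them were detached from duodenum, jejunum and ileum of 3 male mice aged 12 weeks, pooled by segment and sorted for exclusion of propidium iodide. Each segment gave 1 library, so that a segment cannot be told apart from its library, and the 3 libraries share their 3 mice. The labels give the genotype as WT and name no infection or interferon treatment.

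Interferons are signals of antiviral defence. Interferon lambda acts mainly on epithelial cells through a receptor made of the chains Ifnlr1 and Il10rb, type I interferons act on most cells through Ifnar1 and Ifnar2, and both lead through factors such as Stat2 and Irf9 to the same promoter element, the interferon-stimulated response element (ISRE). The genes so induced encode sensors of viral nucleic acids, proteins that block translation or degrade RNA, and factors such as Irf7 that amplify the response. A low level of these genes in the gut of healthy mice is known as the homeostatic interferon response.

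The ISRE was looked for in the promoters of the genes, because its copies are the sequence feature by which interferon-induced genes are known. Its core was written as 2 copies of GAAA with any 2 bases between them. It was sought on both strands in the 250 bases before each gene's start, in RefSeq promoters of the build GRCm38.p6. It was found for 4 of the 7 genes with a promoter in that table, and in 2.98% of all 32851 promoter windows. A match is a description of the letters and not evidence that a factor bound there. The fragments with the matches are shown on the strand of the gene, with the letters of the core, or of its reverse complement, in capitals.

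Isg15, chr4:156200871-156200900, minus strand: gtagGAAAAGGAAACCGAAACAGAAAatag
Ifit1, chr19:34640785-34640814, plus strand: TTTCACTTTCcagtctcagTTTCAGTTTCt
Ifit3, chr19:34583363-34583392, plus strand: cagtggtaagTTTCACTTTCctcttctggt
Ifit3, chr19:34583397-34583426, plus strand: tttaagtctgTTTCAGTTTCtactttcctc
Ddx60, chr8:61928024-61928053, plus strand: gtgatgaatgGAAACCGAAActtaaagctt
Ddx60, chr8:61928057-61928086, plus strand: ggagcagaagaGAAACCGAAActatccttc

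The fragment of Isg15 held 3 matches that overlapped each other, between 78 and 57 bases before the start. Ifit1 held 2 matches, between 104 and 76 bases before the start. The windows of Ifit3 and Ddx60 held 2 matches each. No match was present in these windows of Irf7, Oasl2 and Ifnlr1, and Zbp1 was not in the table. Of 33 other antiviral response genes with a promoter in the table, 12 held the core, as did 10 of 15 genes of the interferon gamma list. The element of the interferon gamma pathway (GAS), written as TTC and GAA with any 3 bases between them, was in the windows of 0 of the 7 genes, of 9 of the 15 genes of the interferon gamma list and in 7.02% of all windows.

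The 3 libraries held 27235 barcodes, of which 16686 passed the filters. Kept cells had medians of 12424, 11737 and 5536 UMIs (unique molecular identifiers, counts of single RNA molecules) in the duodenal, jejunal and ileal library. Mitochondrial genes took a median of 28.9%, 29.0% and 12.2% of the UMIs of enterocytes in this order. The levels below include these UMIs. Without them, enterocytes had 2.65, 3.17 and 3.46 UMIs of Irf7 and 0.164, 0.258 and 0.228 of Ifnlr1 per 10000. Fits were also repeated without mitochondrial genes and with at most 20% mitochondrial UMIs. Beyond this, the part of mitochondrial genes in the results was not tested. Between 4 and 12 cell barcodes were shared by any pair of libraries. Cells were named from marker genes after clustering without the interferon genes, and the cells of a library are not replicates of a segment. Enterocytes, the absorptive cells of the villus, numbered 3215, 3316 and 4107 from duodenum to ileum, and 13 of 13 enterocyte markers were detected in their largest cluster. The cluster named macrophages/monocytes also carried markers of dendritic cells. A level is given as UMIs of a gene per 10000 UMIs of all genes in the summed cells, with exact Poisson intervals at 95% that cover counting error only. Gene positions are those of GRCm38. The chemistry counts 3′ ends, so levels are compared between cells and not between genes.

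Ifnlr1 (ENSMUSG00000062157, chromosome 4, 135686287 to 135708181), the chain that makes a cell responsive to interferon lambda, was highest in enterocytes. Its level there was 0.119, 0.188 and 0.197 in the duodenal, jejunal and ileal library. The lowest enterocyte level thus lay in the duodenum, and the intervals of the jejunum and the ileum overlapped. In T cells, which should lack the receptor, the level was 0.0530, 0.0165 and 0.0375 in the 3 segments, from 22 UMIs in all. The duodenal and the jejunal value each rest on 1 UMI, and the ileal value on 20. The T cell levels were 44.4%, 8.76% and 19.1% of the enterocyte levels, and the 13 enterocyte markers in T cells stood at 26.8%, 8.49% and 12.3% of theirs. The part of carried-over RNA in the T cell counts was not tested. IgA B cells held 0 UMIs of Ifnlr1. A limit of 3 UMIs for a count of 0 allows up to 0.0175 per 10000, and by that limit the enterocyte level was at least 9.54-fold higher. The exact 95% Poisson bound was wider, at 0.0215. Paneth cells also held 0 UMIs, but with 24 cells the limit of 3 UMIs was only 0.0678.

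Il10rb, the chain that Ifnlr1 pairs with, followed another order. Its level in enterocytes was 0.703, 0.771 and 0.748 from proximal to distal, so that the segments lay close together. Compared with enterocytes, Il10rb was higher in tuft cells (log2 fold change 0.69 ± 0.19 SE, adjusted p = 0.00356 by the quasi-likelihood test of edgeR, adjusted after Benjamini and Hochberg for all 11666 genes tested). All fold changes between cell classes below come from this fit of UMIs summed per library and class, scaled by TMM factors that centre the bulk of the genes and with the library as a block, and their p-values measure only the spread between these 3 libraries. Of the ligand genes, Ifnl2, Ifnl3, Ifna1, Ifna2, Ifna4, Ifna5 and Ifne had 0 UMIs in every named class. In enterocytes the limit of 3 UMIs allows up to 0.000257 per 10000. Ifnb1 had 1 UMI, in a macrophage/monocyte. Ifng was counted 152 times in T cells and was the ligand with enough counts for the fit, higher there by a log2 fold change of 7.51 ± 0.75 (edgeR adjusted p = 4.27e-08).

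Irf7 (ENSMUSG00000025498, chromosome 7, 141262706 to 141266481), the transcription factor that amplifies interferon production, was highest in tuft cells and enterocytes among the named classes. Tuft cells, the chemosensory cells of the epithelium, had 4.35, 3.36 and 2.84 from duodenum to ileum. Enterocytes had 1.92, 2.31 and 2.98 in this order. The ranges of both classes overlapped, since tuft cells were above enterocytes in the duodenum and the jejunum but not in the ileum. Without mitochondrial UMIs the ileal level was 3.48 in tuft cells and 3.46 in enterocytes. The fit gave a log2 fold change of -0.06 ± 0.35 (edgeR adjusted p = 0.90). Goblet cells, the mucus cells, followed with 1.25 to 1.51 and lay below enterocytes in every library, at a log2 fold change of -0.85 ± 0.35 that missed the threshold (edgeR adjusted p = 0.0514). Next came enteroendocrine cells with 0.405 to 1.40 and T cells with 0.643 to 0.90, whose ranges overlapped. Stem and proliferating cells had the lowest pooled level, 0.119, after 0.158 in Paneth cells and 0.221 in IgA B cells, and the ranges of these classes over libraries overlapped.

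Zbp1 (ENSMUSG00000027514, chromosome 2, 173206612 to 173218923), a sensor of Z-form nucleic acids, had its highest pooled level in T cells. These had 0.688, 0.643 and 0.547 in the duodenal, jejunal and ileal library, and enterocytes 0.426, 0.214 and 0.0728. T cells were above enterocytes in all 3 libraries, at 162%, 299.9% and 752% of the enterocyte level, and the enterocyte level was lower in each further segment. The fit gave 0.79 ± 0.44, which missed the threshold (edgeR adjusted p = 0.115), and it passed with library sizes in place of TMM factors (1.67, adjusted p = 0.00121), without the filter on low genes (0.85, adjusted p = 0.0401) and without the duodenum (1.26, adjusted p = 0.0377). IgA B cells had 0.520, 0.362 and 0.258, also above enterocytes in all 3 libraries. Their duodenal interval, 0.360 to 0.727, held the enterocyte level of that library. Without mitochondrial UMIs the duodenal level was 0.556 in IgA B cells and 0.587 in enterocytes. The difference over the 3 libraries was called (log2 fold change 1.52 ± 0.48, edgeR adjusted p = 0.00976). That call was lost without TMM factors (0.82, adjusted p = 0.133) and without the jejunum (1.54, adjusted p = 0.0564). Goblet cells had 0.438, 0.403 and 0.349, a range that did not overlap with that of T cells and did overlap with that of IgA B cells.

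Ddx60 (ENSMUSG00000037921, chromosome 8, 61928087 to 62038244), a helicase that assists the RNA sensors, was led by goblet cells and enterocytes. Goblet cells had 1.72, 1.11 and 1.29 from duodenum to ileum. Enterocytes had 1.73, 0.577 and 0.346. The classes were thus alike in the duodenum at these levels, and goblet cells were higher in the jejunum and the ileum. Without mitochondrial UMIs the duodenal level was 1.88 in goblet cells and 2.38 in enterocytes. The call of a higher level in goblet cells (log2 fold change 0.97 ± 0.35, edgeR adjusted p = 0.0277) was lost without the jejunum (1.07, adjusted p = 0.105) and without the ileum (0.51, adjusted p = 0.267). It was also lost without the library block (0.62, edgeR adjusted p = 0.49), with at most 20% mitochondrial UMIs (0.90, adjusted p = 0.0576) and without integration (0.77, adjusted p = 0.0684). No other class of the epithelium passed 0.392 in any library.

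Isg15 (ENSMUSG00000035692, chromosome 4, 156199424 to 156200818), a ubiquitin-like protein that is attached to viral and host proteins, was counted in epithelial and immune cells at overlapping levels. Macrophages/monocytes had 1.08, 3.33 and 1.09 in the duodenal, jejunal and ileal library. T cells had 0.583, 0.709 and 1.19, and enterocytes had 1.22, 0.895 and 0.724. Tuft cells had 1.85, 0.548 and 0.562, and their duodenal level, from 104 UMIs, was the highest of the named classes in that library. The ranges of these 4 classes overlapped, and the order of T cells and enterocytes was opposite in the duodenum and the ileum. Neither macrophages/monocytes (0.31 ± 0.55, edgeR adjusted p = 0.65) nor T cells (-0.72 ± 0.54, edgeR adjusted p = 0.25) were told apart from enterocytes. The jejunal value of macrophages/monocytes came from 27 cells, and without that library their fold change was -0.25.

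Ifit1 (ENSMUSG00000034459, chromosome 19, 34640871 to 34650009), which blocks translation of viral RNA, was highest in enterocytes in every library among the named classes. Enterocytes had 1.55, 0.678 and 0.580 from duodenum to ileum. The next classes by pooled level were T cells with 0.308, goblet cells with 0.279 and tuft cells with 0.269, and their ranges over libraries overlapped. Ifit1 was lower than in enterocytes in all 9 classes tested, from a log2 fold change of -1.66 ± 0.38 in goblet cells (edgeR adjusted p = 0.000928) to -6.33 ± 0.59 in stem and proliferating cells (edgeR adjusted p = 5.68e-10).

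Ifit3 (ENSMUSG00000074896, chromosome 19, 34583531 to 34588731), a partner of Ifit1 in the same protein complex, was sparse and uneven. Enterocytes had 0.242, 0.0736 and 0.0216 in the duodenal, jejunal and ileal library. B cells had 1, 0 and 143 UMIs from duodenum to ileum, and the ileal level reached 0.468. Those UMIs came from 26 of 550 ileal B cells, and the cell with most held 18 of them. Macrophages/monocytes had 0, 7 and 40 UMIs in this order, with levels of 0.274 in the jejunum and 0.203 in the ileum, above enterocytes. T cells had 1, 1 and 50 UMIs, and only their ileal level, 0.0937, was above that of enterocytes. Ifit3b, a near-identical neighbour, had 197, 63 and 29 UMIs in enterocytes in the same order, so reads of both genes may have been split between them or lost, and the values of Ifit3 are uncertain in that respect.

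Oasl2 (ENSMUSG00000029561, chromosome 5, 114896936 to 114912234), of the oligoadenylate synthetase family, was led by tuft cells and enterocytes. Tuft cells had 1.19, 1.27 and 1.07 in the duodenal, jejunal and ileal library, above the enterocyte levels of 1.05, 0.908 and 0.795 in every library. Without mitochondrial UMIs the duodenal level was 1.34 in tuft cells and 1.45 in enterocytes. The fit gave -0.22 ± 0.30 (edgeR adjusted p = 0.58) and 0.38 with library sizes in place of TMM factors, so the direction rested on the scaling. Goblet cells followed with 0.571 to 0.762, and no other named class exceeded 0.431 in any library.

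**Figure D1:**
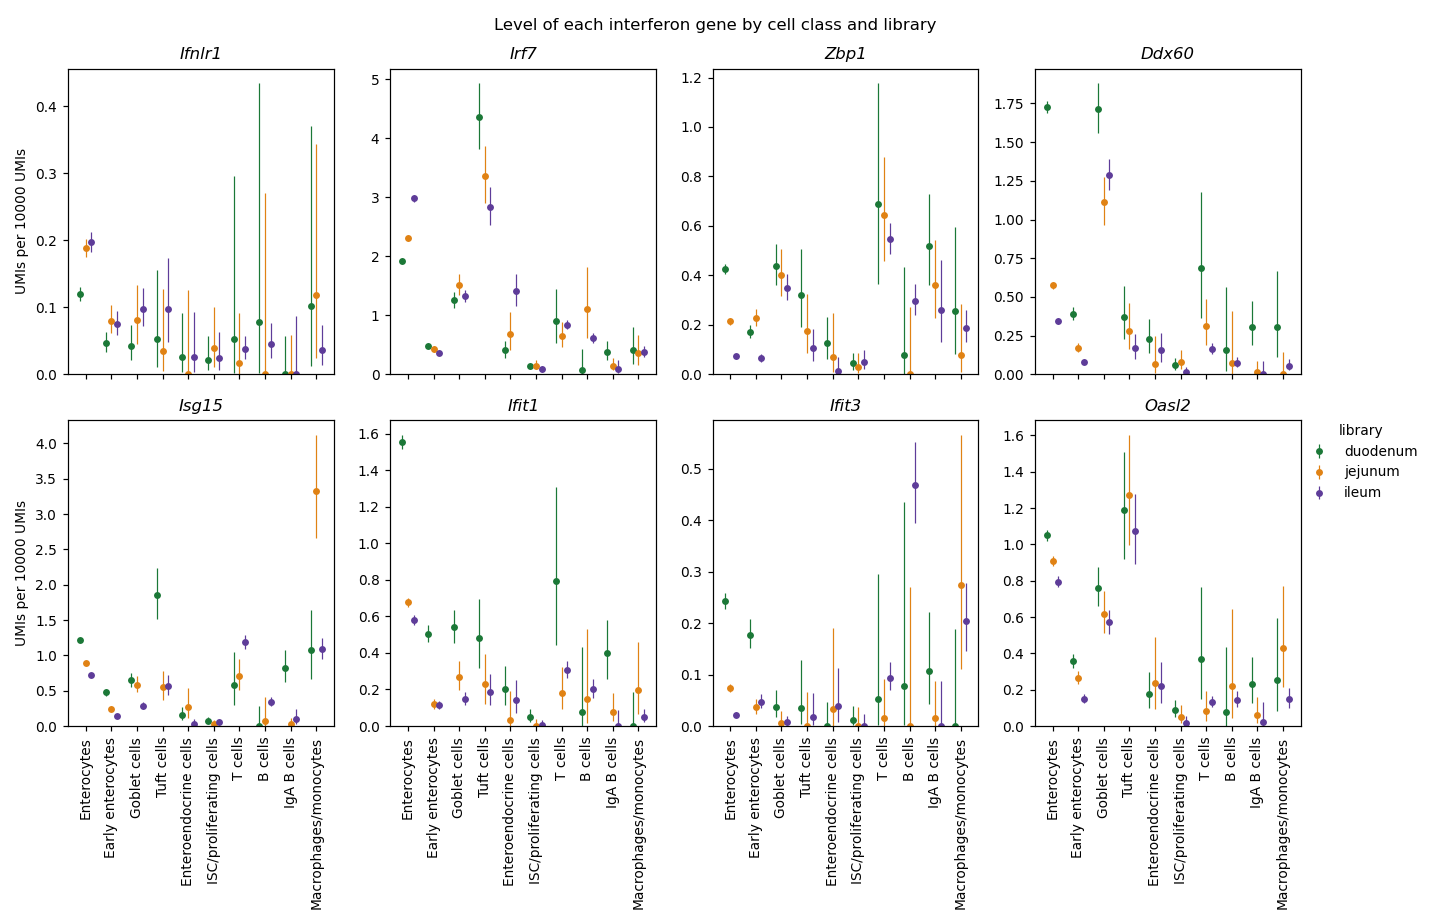
Level of each of the 8 genes in UMIs per 10000 UMIs (vertical axes, each panel on its own scale) by cell class (horizontal axis), with 1 point per library and bars for exact 95% Poisson intervals. Enterocytes lie at or near the top for Ifnlr1, Irf7, Ifit1 and Oasl2 and T cells for Zbp1, while the highest class for Isg15 is tuft cells in the duodenum (1.85), macrophages/monocytes in the jejunum (3.33) and T cells in the ileum (1.19).

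Read by cell class, early enterocytes, the less mature cells of this lineage, had lower levels than enterocytes for 6 of 8 genes and a higher level for 0. Of all genes tested, 22.5% were lower and 20.6% higher in them. In each class below where 0 members were called higher, 0 were higher at an unadjusted p under 0.05 in edgeR and 0 were called by DESeq2. With library sizes in place of TMM factors the share of all calls that were higher went from 47.8% to 69.7% in early enterocytes, from 49.4% to 71.3% in stem and proliferating cells, from 49.0% to 77.0% in enteroendocrine cells and from 47.6% to 71.7% in tuft cells. Irf7 showed the lowest fold change, -2.83 ± 0.37 (edgeR adjusted p = 8.91e-07), with 0.485, 0.423 and 0.366 from proximal to distal against 1.92, 2.31 and 2.98 in enterocytes. Zbp1 (-0.84 ± 0.41, edgeR adjusted p = 0.0967) and Ifit3 (-0.73 ± 0.63, edgeR adjusted p = 0.37) missed the threshold. The other antiviral response genes, a list of 45 of which 41 could be tested, were lower for 28, with a median log2 fold change of -1.19 against -0.12 over all genes. Oas3 (-3.50 ± 0.39), Oasl1 (-3.20 ± 0.29) and Rsad2 (-2.98 ± 0.54) had the largest changes of that list, and Usp18, a brake on the receptor, Stat2 and Jak2 those of the receptors and signal carriers (-2.04 ± 0.63, -2.04 ± 0.22 and -1.66 ± 0.22).

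In stem and proliferating cells of the crypt all 8 genes were called lower than in enterocytes, with log2 fold changes between -3.10 for Zbp1 and -6.33 for Ifit1, where 33.7% of all genes were lower and 32.9% higher. Their 224 cells held 10 UMIs of Ifit1 and 2 of Ifit3. Of the 13 receptors and signal carriers other than Ifnlr1, 13 were lower, among them Stat2 (-3.75 ± 0.28) and Jak2 (-3.44 ± 0.25). Of 41 other antiviral genes, 33 were lower and 2 higher. Mb21d1, the cytosolic DNA sensor cGAS, went the other way among the sensors (5.59 ± 0.55, edgeR adjusted p = 7.19e-09).

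Enteroendocrine cells, the hormone cells that the study is about, had all 8 genes lower than enterocytes, where 28% of all genes were lower and 27% higher. Fold changes ran from -2.34 ± 0.39 for Irf7 to -3.80 ± 0.74 for Isg15. The call of Ifit3 rested on 4 UMIs in 169 cells and was lost without the duodenum (-1.32, edgeR adjusted p = 0.39) or without the jejunum (-3.15, adjusted p = 0.0972), and also without TMM factors (-2.26, adjusted p = 0.103) and in DESeq2 (-2.52, adjusted p = 0.0798). In the ileum Irf7 in these cells reached 1.40, against 0.405 in the duodenum. Isg20, an RNA exonuclease, stood out in the antiviral list with a higher level (5.70 ± 0.52, edgeR adjusted p = 9.79e-10), while 27 of its 41 tested genes were lower and 3 higher.

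Goblet cells differed from enterocytes in both directions. Ddx60 was called higher, and Ifnlr1 (-1.24 ± 0.34), Ifit1 (-1.66 ± 0.38) and Ifit3 (-2.73 ± 0.85) lower, where 18.2% of all genes were higher and 22.5% lower. Zbp1 was above the enterocyte level in 3 of 3 libraries, by least in the duodenum (0.438 against 0.426), but missed the threshold (0.90 ± 0.41, edgeR adjusted p = 0.0842). Without mitochondrial UMIs the duodenal level was 0.480 in goblet cells and 0.587 in enterocytes. The number of called members was 1 without the jejunum, where Ifnlr1 and Ifit3 were lost too, and 2 without the ileum. Ido1, which degrades tryptophan, had the largest change of the interferon gamma list (8.36 ± 0.46), and Tor3a (5.44 ± 0.31) the largest of the antiviral list, in which 3 genes were higher and 13 lower.

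Tuft cells had lower Ifnlr1 (-1.93 ± 0.42), Ddx60 (-2.09 ± 0.42), Ifit1 (-2.28 ± 0.44) and Ifit3 (-3.08 ± 1.14), and 0 of the 8 genes were called higher, where 25.8% of all genes were lower and 23.4% higher. The call of Ifit3, from 4 UMIs, was lost without the duodenum (-2.71, edgeR adjusted p = 0.114) and without the jejunum (-2.55, adjusted p = 0.172), and also without TMM factors (-2.45, adjusted p = 0.0751) and with the interferon genes kept in the clustering (-2.09, adjusted p = 0.0775). Of the antiviral list, 19 genes were lower, led by the Ifit1 relatives Ifit1bl2 (-3.87 ± 0.39) and Ifit1bl1 (-3.65 ± 0.53), and 7 were higher, led by Oas2 (3.34 ± 0.48).

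Among immune cells, the receptor and most response genes were lower than in enterocytes. T cells had 5 of 8 genes lower and 0 higher, where 33.9% of all genes were lower and 31.3% higher, and the 5 were Ifnlr1, Irf7, Ddx60, Ifit1 and Oasl2, from -2.003 ± 0.42 for Ifit1 to -3.34 ± 0.37 for Oasl2. B cells had 6 of 8 lower and 0 higher, against 34.4% and 30.4% of all genes. Without the ileum, which held 550 of the 613 B cells, Isg15 moved from -2.35 to -5.64 and Ifit1 from -2.68 to -4.18, and Zbp1 was called lower (-3.86, edgeR adjusted p = 0.0013). IgA B cells had 5 lower and Zbp1 higher, against 29.6% lower and 21.2% higher over all genes, and without the duodenum Ddx60 moved from -2.23 to -4.99 and Irf7 from -2.75 to -3.79. Macrophages/monocytes had 5 of 8 lower and 0 higher, against 31.9% and 30.5% of all genes. With library sizes in place of TMM factors the share of all calls that were higher went from 48.1% to 70.1% in T cells, from 46.9% to 67.3% in B cells, from 41.8% to 25.4% in IgA B cells and from 48.9% to 66.9% in macrophages/monocytes. Enterocyte markers in these 4 classes stood at 4.26% to 26.8% of the enterocyte level, and the part of carried-over RNA in the remaining counts was not tested.

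The interferon gamma list was higher in each immune class tested for most of its called genes. In B cells 7 of its genes were higher and 3 lower, and in IgA B cells 4 were higher and 2 lower. In macrophages/monocytes 11 of its 15 tested genes were higher, with a median log2 fold change of 3.22 against -0.09 over all genes, and in T cells 8 were higher and 1 lower. Gbp4 (7.77 ± 0.76) and Gbp5 (7.71 ± 0.87), guanylate-binding proteins, led the list in macrophages/monocytes, and the same pair led it in T cells (7.93 ± 0.73 and 7.87 ± 0.81). The DNA sensor adaptor Tmem173 (STING) was higher in T cells by 6.30 ± 0.69 and in macrophages/monocytes by 6.64 ± 0.72. Ifi27l2a led the antiviral list in both (5.85 ± 0.45 and 7.11 ± 0.47). These genes were higher in IgA B cells too, with 5.42 ± 1.33 for Gbp4, 5.83 ± 1.53 for Gbp5, 6.20 ± 0.86 for Tmem173 and 8.14 ± 0.49 for Ifi27l2a.

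**Figure D2:**
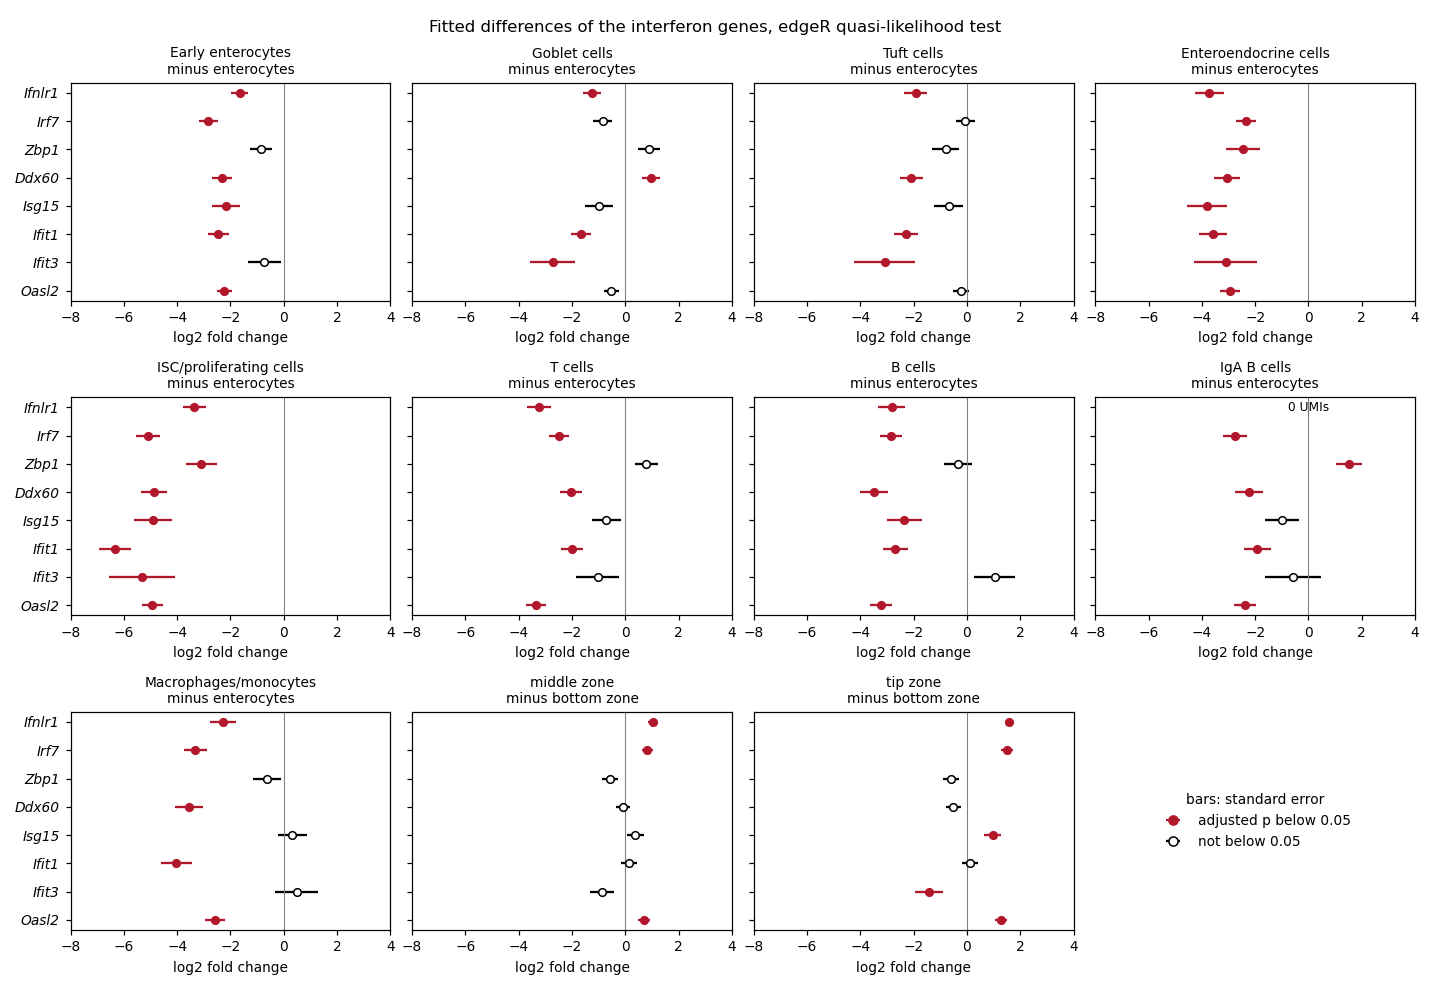
Log2 fold change of each gene against enterocytes for 9 cell classes, and of the middle and tip zones against the bottom zone, with bars of 1 SE from the edgeR fit and filled points for an adjusted p below 0.05. Stem and proliferating cells and enteroendocrine cells have all 8 genes lower, and Zbp1 in IgA B cells and Ddx60 in goblet cells are the points called higher among the classes.

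Along the villus, the genes fell into different patterns. Enterocytes of each library were ranked from bottom to tip by 8 tip and 8 bottom landmark genes and cut into 5 zones of equal cell number. Ada, adenosine deaminase, is itself one of the tip landmarks and ran from 0.759 to 103 per 10000 in the duodenum, from 1.40 to 76.7 in the jejunum and from 1.57 to 89.4 in the ileum, which describes the ranking and is no check of it. In the fit of 15 sums, 4 genes were called higher at the tip than at the bottom and 1 lower, where 29.9% of 10691 genes were higher and 34.1% lower. With library sizes in place of TMM factors, the median of all genes moved by -0.47 and the numbers called over all genes changed from 3201 higher and 3650 lower to 1737 and 5566, so that the share of calls that were higher went from 46.7% to 23.8%.

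Ifnlr1, Irf7 and Oasl2 were higher toward the tip in each library. Ifnlr1 went from 0.0756 at the bottom to 0.177 at the tip in the duodenum, from 0.126 to 0.226 in the jejunum and from 0.116 to 0.277 in the ileum. It was called with 1.58 ± 0.17 (edgeR adjusted p = 5.54e-06). Irf7 went from 1.55 to 2.47, from 1.58 to 2.74 and from 1.30 to 4.28, so the steepest course was in the ileum, where the ratio of tip to bottom was 3.29. It was called with 1.496 ± 0.22 (edgeR adjusted p = 6.28e-05). Oasl2 went from 0.927 to 1.32, from 0.708 to 0.9502 and from 0.355 to 1.10 (1.27 ± 0.23, edgeR adjusted p = 0.000356). The direction of these 3 genes was the same in all 3 libraries, and none of the 12 alternatives of this fit ended their call at the tip.

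The middle zone already differed for these genes. Ifnlr1 (1.02 ± 0.17), Irf7 (0.82 ± 0.22) and Oasl2 (0.71 ± 0.23) were called higher than at the bottom and 0 of the 8 genes lower, where 15.4% of all genes were higher and 13.9% lower. No member was lower at an unadjusted p under 0.05 or in DESeq2, and with library sizes in place of TMM factors the share of all calls that were higher went from 52.5% to 35.9%. None of the 3 was called without the jejunum, and Oasl2 was not called without the ileum (0.42, edgeR adjusted p = 0.104). Over all genes 3132 were called in this contrast, and 62 without the jejunum. Without that library 2 members were higher at an unadjusted p under 0.05.

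Zbp1, Ddx60 and Ifit3 had lower levels at the tip than at the bottom in the duodenum and the jejunum. Ddx60 was flat over the lower zones of the duodenum, with 2.01, 1.97 and 1.96 per 10000, and had 1.44 and 0.907 in the upper zones, while its level was lower in each further zone of the jejunum, from 0.936 to 0.285. In the ileum it went from 0.271 at the bottom to 0.399 in the middle zone and was 0.309 at the tip. Zbp1 showed the same split, with 0.492 to 0.298 from bottom to tip in the duodenum, 0.373 to 0.0863 in the jejunum, and 0.0457 to 0.0854 over the 5 zones of the ileum. Ifit3 went from 0.292 to 0.107 in the duodenum, from 0.158 to 0.0164 in the jejunum and from 0.0353 to 0.0260 in the ileum, the latter from 24 and 17 UMIs. Ifit3 was called lower (-1.42 ± 0.51, edgeR adjusted p = 0.0266), but not without the duodenum (-1.51, adjusted p = 0.0512) or the jejunum (-0.72, adjusted p = 0.38), nor with 3 zones (-0.61, adjusted p = 0.261), at most 20% mitochondrial UMIs (-1.69, adjusted p = 0.0972), DESeq2 (-1.11, adjusted p = 0.0801) or no library block (-1.35, adjusted p = 0.457). Ddx60 (-0.51 ± 0.27, edgeR adjusted p = 0.120) and Zbp1 (-0.60 ± 0.31, edgeR adjusted p = 0.110) missed the threshold over all 3 libraries and passed it without the ileum, with -0.999 (adjusted p = 0.00111) and -0.93 (adjusted p = 0.0230), and without TMM factors, with -0.97 (adjusted p = 0.00562) and -1.04 (adjusted p = 0.0118).

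The courses of Isg15 and Ifit1 differed between segments. Isg15 had 1.25 at the bottom and 1.19 at the tip of the duodenum and 0.846 and 0.820 in the jejunum, and went from 0.318 to 1.12 in the ileum, a ratio of 3.51. Its call (0.97 ± 0.32, edgeR adjusted p = 0.0164) was lost without the ileum (0.38, adjusted p = 0.062), without the jejunum (1.23, adjusted p = 0.0524) and without TMM factors (0.51, adjusted p = 0.1249). It was also lost without the Reg landmarks (0.57, edgeR adjusted p = 0.148), with at most 20% mitochondrial UMIs (0.72, adjusted p = 0.0767) and without the library block (0.80, adjusted p = 0.191). Ifit1 was lower at the tip than at the bottom in the duodenum, with 1.08 against 1.56, and in the jejunum, with 0.368 against 0.896, and higher in the ileum, with 0.674 against 0.381. Over the 3 libraries Ifit1 was not called (0.12 ± 0.31, edgeR adjusted p = 0.75). The median mitochondrial share of ileal enterocytes went from 16.9% at the bottom to 8.63% at the tip, while it stayed between 27.1% and 30.5% in the other segments. Without mitochondrial UMIs, Isg15 went from 0.389 at the bottom to 1.24 at the tip of the ileum, and Ifit1 from 0.467 to 0.749. Beyond these values and the limit of 20%, the part of this share in these courses was not tested.

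**Figure D3:**
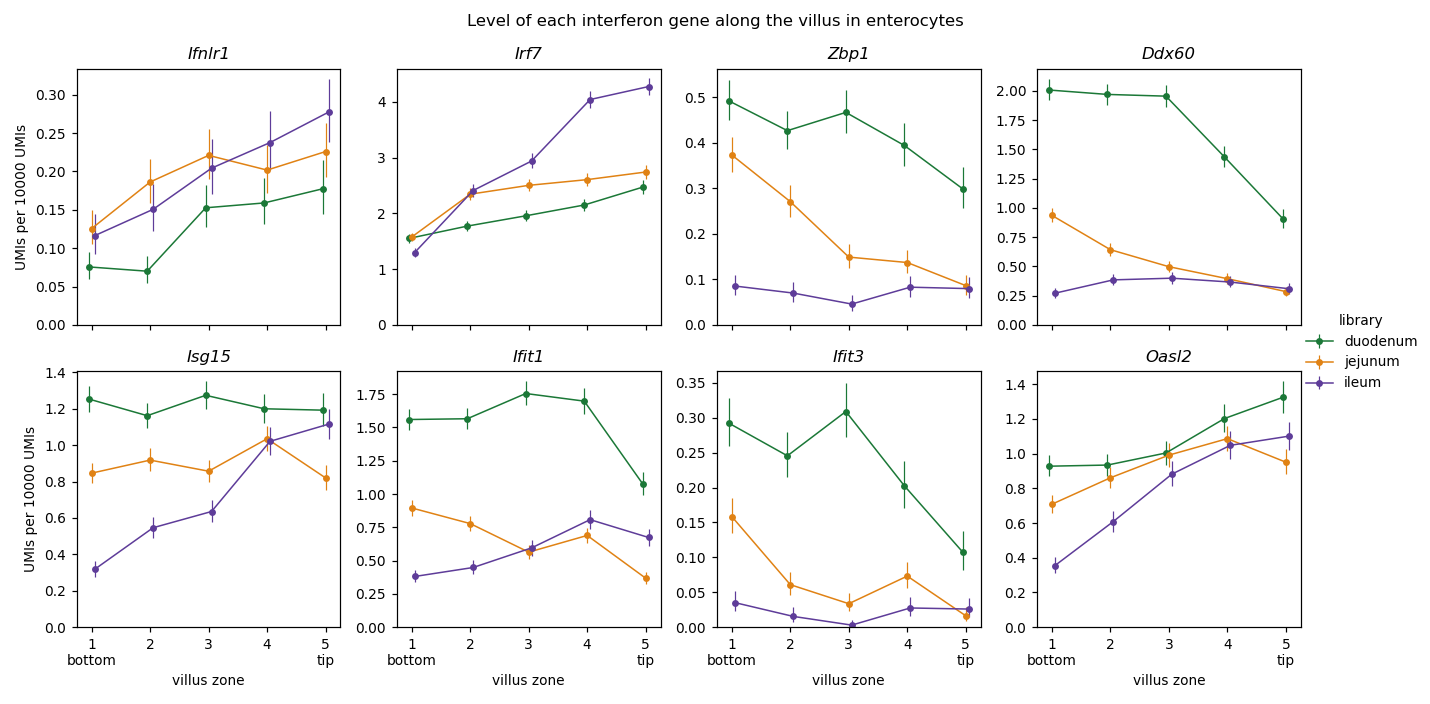
Level of each gene in enterocytes in UMIs per 10000 UMIs (vertical axes, each panel on its own scale from 0) over 5 villus zones from bottom to tip (horizontal axis), with 1 line per library and bars for exact 95% Poisson intervals. The tip lies above the bottom for Irf7 and Ifnlr1 in all 3 libraries and below it for Ddx60 and Zbp1 in the duodenum and the jejunum, and Isg15 goes from 0.318 to 1.12 in the ileum.

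Other genes of the pathway split along the villus as well. Of the 13 receptors and signal carriers other than Ifnlr1, 7 were called higher at the tip and 1 lower, led by Jak2 (1.39 ± 0.13), Socs1 (1.18 ± 0.31) and Irf9 (1.08 ± 0.11), with a median of 0.32 against -0.08 over all genes. Of 41 other antiviral genes, 10 were higher and 9 lower, and the extremes were Oasl1 (2.89 ± 0.21), a relative of Oasl2, and Bst2 (-2.37 ± 0.25), which tethers viruses to the cell. Among the sensors, Trim25, a ubiquitin ligase of the RIG-I pathway, was higher (2.50 ± 0.31), and the RNA sensor Tlr3 lower (-2.51 ± 0.34). The interferon gamma list was lower for 6 and higher for 2 of 12 tested genes, led by the MHC class II activator Ciita (-3.32 ± 0.53), with a median of -1.07.

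Between segments, enterocytes could only be described, since each segment is 1 library. From the duodenum to the ileum, 4 of the 8 genes were more than 2-fold lower and 0 more than 2-fold higher, while 16.7% of 10550 genes with at least 100 UMIs were that much lower and 12.5% that much higher. Ifit3 had a log2 ratio of ileum to duodenum of -3.49 (95% interval -3.85 to -3.14), Zbp1 -2.55 (-2.75 to -2.35), Ddx60 -2.32 (-2.41 to -2.23) and Ifit1 -1.42 (-1.50 to -1.35). Isg15 (-0.75) and Oasl2 (-0.40) were lower by less, and Irf7 (0.63) and Ifnlr1 (0.72) were higher in the ileum. The median of all genes was -0.09, so the members lay on both sides of it.

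From the duodenum to the jejunum, the log2 ratio was -1.58 for Ddx60 and -1.20 for Ifit1. Together with Ifit3 (-1.72) these were 3 genes more than 2-fold lower and 0 more than 2-fold higher, against 12.9% and 6.27% of all genes. From the jejunum to the ileum Ifit3 (-1.77) and Zbp1 (-1.56) were more than 2-fold lower and 0 genes higher, against 6.14% and 10.5% of all genes. These orders held for zones only in part. At the tip, the ileum exceeded the jejunum for Isg15 (log2 ratio 0.44) and Ifit1 (0.87), and at the bottom Irf7 was lower in the ileum than in the duodenum (-0.26). The tip ratio of Ifit3 (0.66) rested on 17 ileal and 12 jejunal UMIs, and the Poisson intervals of the 2 levels overlapped.

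The step from duodenum to ileum differed between classes gene by gene. In goblet cells the log2 ratio of ileum to duodenum was -0.42 for Ddx60 (95% interval -0.59 to -0.24) and -0.33 for Zbp1 (-0.67 to 0.02), against -2.32 and -2.55 in enterocytes, and the intervals of the classes did not overlap. For Ifit1 goblet cells had -1.88 (-2.30 to -1.46), with an interval that overlapped that of enterocytes. Isg15 was lower by more in goblet cells, at -1.17 (-1.50 to -0.85) against -0.75 (-0.82 to -0.68), and the intervals did not overlap. In early enterocytes Ddx60 had -2.26, with an interval that overlapped that of enterocytes, and Ifit1 -2.14 (-2.45 to -1.84), past it. Zbp1 with -1.41 (-1.85 to -0.98) and Ifit3 with -1.93 (-2.44 to -1.45) were lower by less there than in enterocytes, and Irf7 with -0.41 (-0.61 to -0.20) had the opposite sign. Tuft cells had lower Irf7 in the ileum (-0.62, -0.86 to -0.37), where enterocytes had more, and enteroendocrine cells had more Irf7 there (1.79, 1.21 to 2.41). These intervals cover counting error and not the spread between animals.

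The 7 response genes were then counted in single enterocytes. Each cell was thinned to 2000 UMIs so that depth did not set the result, which left out 52, 27 and 219 shallower cells in the duodenal, jejunal and ileal library. At least 1 of the 7 was detected in 62.8% of duodenal, 58.6% of jejunal and 56.9% of ileal enterocytes. At least 2 were detected in 31.0% (exact 95% binomial interval 29.4% to 32.7%), 20.1% (18.8% to 21.5%) and 18.8% (17.6% to 20.1%). At least 4 were detected in 6.92%, 2.22% and 1.52%, and the duodenum was highest at each of these numbers. Without thinning, at least 2 were counted in 81.6%, 76.8% and 49.7% of enterocytes with medians of 12059, 12040 and 6313 UMIs. Stem and proliferating cells, in which all 8 genes were called lower, held at least 2 of the 7 in 0.935% of 214 cells after the same thinning, at a median of 20017 UMIs before it. The share with at least 2 ran from 7.88% at the bottom to 24.97% at the tip of the ileum, and from 28.5% to 26.4% in the duodenum with a maximum of 34.4% in the zone next to the tip.

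**Figure D4:**
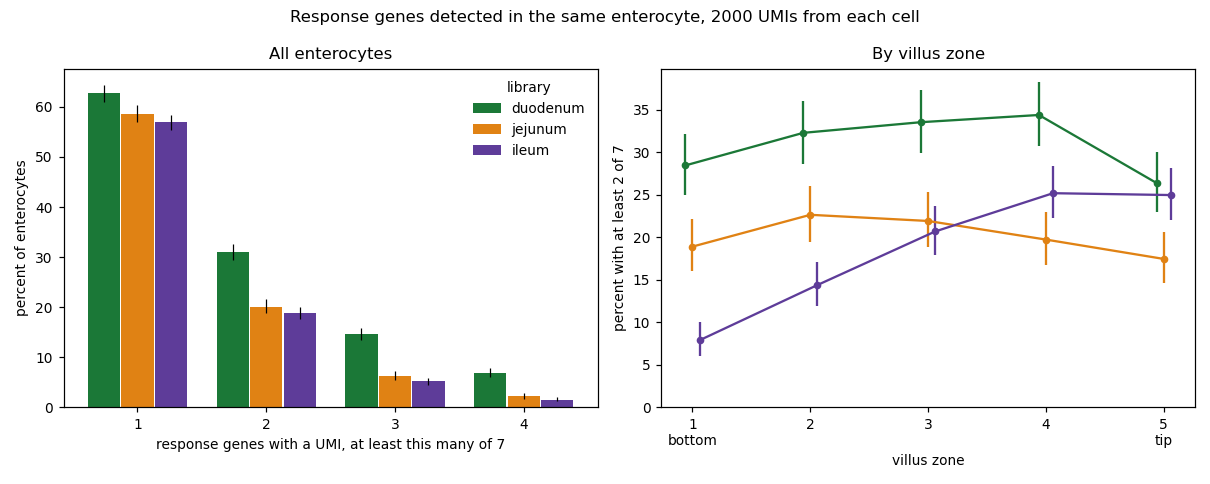
Percent of enterocytes, thinned to 2000 UMIs each, with UMIs of at least 1, 2, 3 or 4 of the 7 response genes (left) and with at least 2 of them by villus zone (right). Filled bars on the left and lines on the right stand for the libraries, and thin vertical lines for exact 95% binomial intervals. The duodenum is highest at every number of genes, and in the ileum the share goes from 7.88% at the bottom to 24.97% at the tip.

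The response genes met in the same cells more often than the product of their shares. Over the 21 pairs of response genes, the share of cells with both genes divided by that product had a median of 1.81, 2.05 and 1.82 from duodenum to ileum, and was above 1 for 21, 21 and 20 pairs. The pair of Ifit1 and Ifit3 had 3.85, 7.15 and 4.44, where Ifit3 was detected in only 129, 28 and 9 cells. Isg15 and Ifit1 had 2.33, 2.65 and 2.53, and Ifit1 was detected in 38.9% of duodenal enterocytes with Isg15 and in 12.5% of those without. Pairs with Ifnlr1 had medians of 1.14, 1.15 and 1.04, and 6, 6 and 4 of the 7 such pairs were above the value of 1 that independent detection gives, with highest values of 1.65, 1.67 and 1.54. Cells of a library share their mice, and no test was made over cells.

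**Figure D5:**
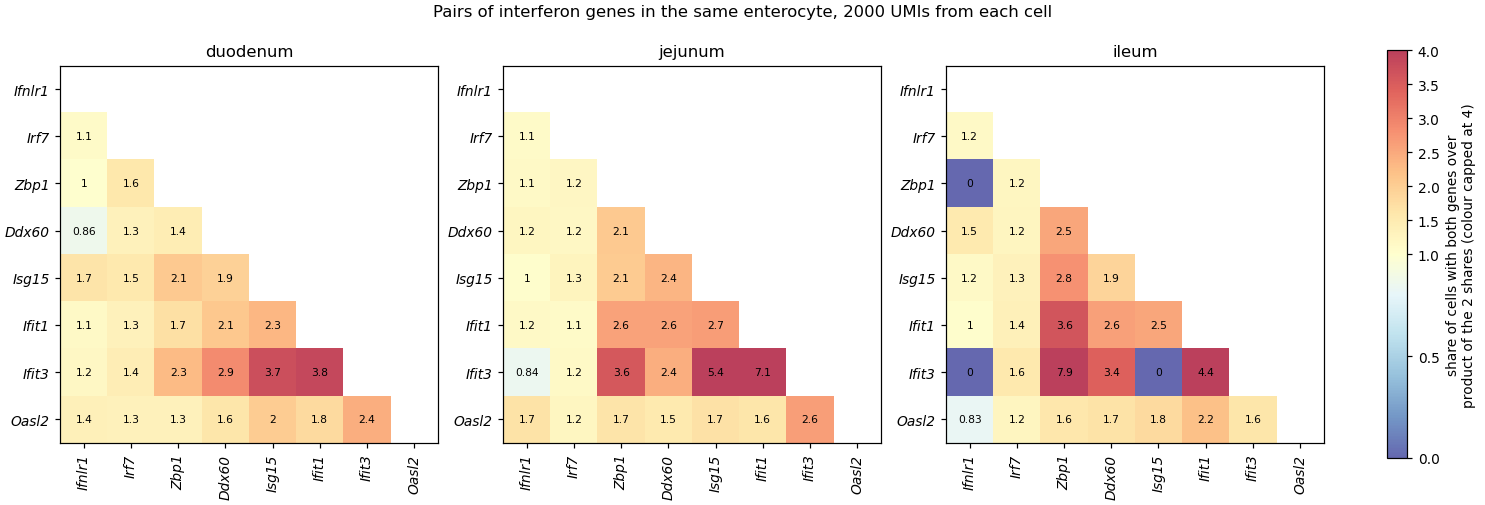
Share of enterocytes with both genes of a pair over the product of the shares of the 2 genes, at 2000 UMIs per cell, for each pair (rows and columns) and library (panels), with a value of 1 where detection of the genes is independent. The highest values belong to pairs with Ifit3, some of them from few cells: 7.85 for Ifit3 and Zbp1 in the ileum from 1 cell and 7.15 for Ifit1 and Ifit3 in the jejunum from 16 cells. Pairs of Irf7 with a response gene lie between 1.10 and 1.57, and the values of 0 in the ileum are those of Isg15 with Ifit3 and of Ifnlr1 with Ifit3 and Zbp1.

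Counts were also unevenly spread over cells. The variance of thinned counts over their mean was 3.37, 2.26 and 2.57 for Ifit1 from proximal to distal, 2.31, 2.66 and 2.05 for Isg15, and 1.21, 1.18 and 1.32 for Irf7. For Ifnlr1 it was 0.997, 0.999 and 1.04, where counts with no spread beyond sampling would give 1. The 1% of cells with most UMIs held 24.2%, 33.6% and 34.2% of Ifit1 and 8.37%, 7.49% and 7.30% of Irf7. This share also depends on how many UMIs a gene has, and it was 38.8%, 25.2% and 30.6% for Ifnlr1. Thinned UMIs numbered 1003, 396 and 438 for Ifit1, 1386, 1643 and 2494 for Irf7 and 85, 143 and 147 for Ifnlr1. Irf7 was found in many cells at a low count, in 33.0%, 36.9% and 42.8% of them after thinning and in 79.8%, 87.3% and 73.4% before it, while the counts of Ifit1 lay in fewer cells.

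When the interferon genes were allowed to shape the clusters, 305 enterocytes (2.87%) formed a cluster of their own, with 4 of the 8 genes among its 10 leading genes. The members defined it, so their levels in it and outside it are a description. It held 201 duodenal (6.19%), 80 jejunal (2.42%) and 24 ileal (0.592%) enterocytes. These cells carried 51.3%, 44.4% and 18.1% of the Ifit1 UMIs of enterocytes and 71.1%, 77.5% and 43.0% of those of Ifit3, but 13.3%, 5.52% and 1.27% of those of Irf7. Ifnlr1 was 0.110, 0.1253 and 0.222 per 10000 in them and 0.119, 0.190 and 0.198 in the other enterocytes. Outside this cluster, Isg15 lay at 0.689, 0.582 and 0.657 from proximal to distal and Ifit1 at 0.823, 0.388 and 0.489, while Ddx60 at 1.29, 0.451 and 0.325 and Zbp1 at 0.366, 0.187 and 0.0691 kept their order from duodenum to ileum. The cells left out were chosen by these same genes and were 6.19% of duodenal but 0.592% of ileal enterocytes. The orders outside the cluster follow in part from that choice.

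The genes most like the response genes across enterocytes were ranked by Pearson's r with the summed response genes, taking the lowest r of the 3 libraries. Over 9283 genes that value had a median of -0.03 and a 99th percentile of 0.0882. The first was Ifit1bl1, with r of 0.63, 0.42 and 0.30 in the duodenum (3215 cells), the jejunum (3316) and the ileum (4107). It was followed by Rtp4 (lowest r 0.28), Apol9a (0.25), Oas3 (0.24), Parp12 (0.24), Oasl1 (0.23), Parp14 (0.23), Lgals3bp (0.22), Spats2l (0.22) and Apol9b (0.22), of which Apol9a and Apol9b are near-identical copies whose counts are uncertain. The members against the sum of the others had 0.35 for Oasl2, 0.33 for Isg15, 0.32 for Ifit1, 0.30 for Irf7, 0.22 for Ddx60, 0.11 for Zbp1 and 0.07 for Ifit3, and Ifnlr1 had -0.003. The points are cells of 3 libraries and share depth and mitochondrial share, so no p is given.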

How the data were processed

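The authors counted UMIs with Cell Ranger 3.0.2 on GRCm38 (mm10), per the labels, and the deposited values are whole counts per gene and barcode without normalization. A barcode was kept at 800 to 50000 UMIs and 200 to 6000 genes if mitochondrial genes held no more than 40% of its UMIs, following the study's methods. Seurat 5.3.0 (R 4.3.3) integrated the libraries over 2000 variable genes, without the interferon genes, and clustered the cells (30 principal components, resolution 0.8). A cluster took the name of the marker list that scored highest if at least 3 of its markers were detected in at least 10% of cells, if at least 2 of them stood among the 10 leading genes (enterocytes excepted) and if no other list had more there, hormone genes and Vil1 not counted, and 1379 cells had no name. Doublets were not removed, and Scrublet (scanpy 1.11.5) called 0, 0 and 146 cells from proximal to distal.

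UMIs were summed per library and class where at least 10 cells were present, and classes with such sums in at least 2 libraries were compared with enterocytes. Sums were filtered with filterByExpr, scaled by TMM and fitted in edgeR 4.0.16 by quasi-likelihood, blocked by library, with p-values adjusted after Benjamini and Hochberg at a threshold of 0.05, and DESeq2 1.42.0 served as an alternative. The fit was tested on simulated data. Paneth cells reached 10 cells in the ileum alone, so their sum of 11 cells was among the 31 sums of the class fit but they were not compared. Zones are 5 groups of equal cell number per library, ranked by the ratio of tip to tip plus bottom landmark UMIs. Python 3.11.15 (numpy 2.4.6, scipy 1.17.1, pandas 2.3.3) gave levels, thinned counts and intervals. Other settings tried are the scaling, the filter, the block, the clustering, mitochondrial limits and leaving out each library.

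The 8 genes and all lists were chosen with earlier results of these data known. Named genes are the members, the receptor and ligand genes, at most 3 genes with the largest change in each list and contrast, and the 10 most alike genes. The Ifit3 counts in B cells and the interferon-led cluster were picked out after their values were seen.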

Additional observations from a re-analysis of the deposited data

Results flagged for a closer look

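The course of Ifit1 along the villus went in opposite directions in the segments. Its log2 ratio of tip to bottom was 0.822 in the ileum, from 440 and 259 UMIs, against -0.54 in the duodenum and -1.28 in the jejunum, and no interval of counting error reached 0. Both contrasts, of the ileum against the duodenum and against the jejunum, were picked out because the directions were opposite. With 1 library a segment the difference between them was not tested.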

How the results depend on the processing

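Of 1304 refits of a member's fold change under another setting, 1206 kept direction and side of the threshold, 38 lost it, 38 passed it and 22 changed direction. Of the members' log2 ratios between segments under another setting, 57 stayed within the counting interval of the reported value, 77 lay outside it and 10 changed direction. With library sizes in place of TMM, Zbp1 had 0.47 in B cells and 0.0089 in macrophages/monocytes, Isg15 0.15 in T cells, Oasl2 0.38 and Irf7 0.55 in tuft cells, and Ifit1 -0.011 in the middle zone and -0.35 at the tip. Irf7 in tuft cells had 0.0081 without mitochondrial genes, 0.045 without the highest Scrublet scores, 0.15 in DESeq2 and -0.40 to 0.33 when a library was left out. Ifit1 at the tip had -0.045 without Reg landmarks, -0.55 with at most 20% mitochondrial UMIs, -0.027 without the library block and -0.46 to 0.58 when a library was left out, and in the middle zone -0.24 with at most 20% mitochondrial UMIs and -0.12 to 0.42 when a library was left out. Ddx60 in the middle zone had 0.26 without the jejunum. Leaving out the ileum or the duodenum gave Zbp1 -3.86 or 0.33 and Ifit3 -2.87 or 2.02 in B cells, and Ifit3 -0.31 or 1.47 in macrophages/monocytes, where Isg15 had -0.25 without the jejunum and 0.63 without the ileum. The causes were not tested.

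Members called in goblet cells numbered 7 with no filter, 7 in a fit of 2 classes alone, 2 without the library block and 1 to 6 when a library was left out. At the tip they numbered 3 with at most 20% mitochondrial UMIs, 3 without the library block and 3 to 7 when a library was left out. In the middle zone they numbered 0 without the library block, where edgeR called 0 of all genes (1095 at an unadjusted p under 0.05) and DESeq2 with the block called 2967, and 0 to 4 when a library was left out. Members past 2-fold numbered 1 for jejunum against duodenum at the bottom, and for ileum against jejunum 5 at the bottom and 0 at the tip. With at most 20% mitochondrial UMIs the log2 ratio of ileum to jejunum was 0.30 for Ifit1 and 0.0327 for Oasl2, and that of jejunum to duodenum -0.0298 for Irf7. In the bottom zone Irf7 had -0.26 for ileum against duodenum and -0.28 for ileum against jejunum. At the tip the ratio of ileum to jejunum was 0.44 for Isg15, 0.87 for Ifit1, 0.66 for Ifit3, 0.21 for Oasl2 and 0.12 for Ddx60. Enterocytes with at least 2 response genes were 12.6%, 6.45% and 5.92% at 800 UMIs, 57.6%, 48.6% and 44.7% at 5000 UMIs, and 33.3%, 17.3% and 21.8% with at most 20% mitochondrial UMIs, where the ileum passed the jejunum.

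Over all genes, calls at the tip were 6851, and 2831 without the library block. In the middle zone they were 3132, and 1902 with 3 zones, 1609 without the ileum and 62 without the jejunum. They went from 7560 to 4790 in B cells and from 7277 to 4845 in macrophages/monocytes without the ileum, and from 5025 to 2778 in early enterocytes and from 4756 to 3060 in goblet cells without the jejunum. Without TMM the median of all genes moved by 0.33 to 0.84 upward in early enterocytes, tuft, enteroendocrine, stem, T and B cells and macrophages/monocytes, and by -0.63 in IgA B cells. Stem cells joined the Paneth class with interferon genes kept or without integration, and without integration all but 1 of 393 early enterocytes were ileal, so these fits gave no value. The library block paired classes and zones within each library. Between segments, no paired analysis was possible because each segment has 1 library. Low counts limit the values of Ifit3, Ifnlr1 and the immune cells of the duodenum and the jejunum.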

Other observations

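Cells that were given no class also carried the response genes. A cluster of 26 cells led by Siglech, a gene of plasmacytoid dendritic cells, had an Irf7 level of 2.37, 2.22 and 2.48 per 10000 UMIs from proximal to distal, close to that of enterocytes, and 0 UMIs of Ifnlr1 and Ifit3. Its Irf7 counts came from 8, 9 and 36 UMIs. For its counts of 0 the limit of 3 UMIs was 0.137 and the exact 95% Poisson bound 0.168. Pooled enterocyte levels were 0.167 for Ifnlr1 and 0.117 for Ifit3, so these counts do not place the cluster below enterocytes. The level of Ifnar1 in the same cells was 2.32. In a cluster of 948 cells led by Gm26917, Irf7 was 2.31, 1.45 and 1.25 and Ifit1 1.02, 0.513 and 0.261, both highest in the duodenum, whereas Irf7 of enterocytes was highest in the ileum. In a cluster of 405 cells led by Bcl2, which has few UMIs, Ifnlr1 was at 0 UMIs and Isg15 at 0.619.

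Within the B cells of the ileum, 139 of the Ifit3 UMIs lay in the cluster led by Ebf1, where 23 of 471 cells had one, and 4 in the cluster led by Ms4a1, where 3 of 79 cells had one. Usp18 in enterocytes was 0.207, 0.112 and 0.0195 per 10000 from proximal to distal, and Socs1 was 0.0196, 0.0635 and 0.0664, so these inhibitors of the receptor had opposite orders. Stat2 was 0.579, 0.425 and 0.519 in the same order.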
